A study of Mus musculus with 6 samples.

Results

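The erythroid programme is represented here by 9 genes that are switched on or raised as a blood progenitor commits to red cells: the transcription factors Gata1 and Klf1, the cofactor Zfpm1, the receptors Epor and Tfrc, the haem enzyme Alas2, the carbonic anhydrases Car1 and Car2, and the membrane protein Ermap. They were taken as named genes, and every probe set (a group of short array probes against 1 transcript) whose annotation gives exactly 1 of these symbols was used. This gave 15 probe sets of the 45101 on the array, and 9 of the 18194 genes with a probe set of 1 symbol. Tfrc had 6 probe sets, 3 of which are control probe sets against its 3′, middle and 5′ parts, Zfpm1 had 2, and each of the other 7 genes had 1. The cells were LSK cells, which lack mature lineage markers and carry Sca-1 and Kit, and include the haematopoietic stem cells and the first multipotent progenitors. They were flow sorted from the bone marrow of mice of the strain given as CD57BL/6, 6 months old, and not treated. A group of 3 WT samples was compared with a group of 3 Tet1 KO samples, 1 array each. Tet1 encodes an enzyme that oxidises methylated cytosine in DNA, and the series title names it a tumour suppressor of the blood. The deleted part of the gene, the cells in which it is missing and whether a sample is 1 mouse or a pool are not stated in the labels. The p-values below therefore cover only how far these 6 samples spread.

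Red cell development is driven by GATA1, which binds GATA motifs together with its cofactor FOG1, the product of Zfpm1, and by KLF1, which binds CACC-type motifs in globin and other red cell genes. Erythropoietin acts through the receptor EPOR to keep the progenitors alive. Iron enters through the transferrin receptor TFRC and is built into haem, whose first step in red cells is made by ALAS2. Stem cells and multipotent progenitors carry low levels of some of these transcripts before commitment, and in bulk RNA fewer cells of a type and less RNA per cell cannot be told apart.

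The promoters are shown first, because Tet1 acts on cytosines followed by guanine (CG) and GATA1 acts on GATA motifs. Windows of 250 bases before the transcription start, from RefSeq on GRCm38.p6, were found for 7 of the 9 genes, with 2 windows for Tfrc. The GATA motif was searched on both strands as AGATAA, with either A or T as its first base and either A or G as its last, and was present in the windows of 4 genes, against 26.5% of all 32851 windows. The 4 stretches below run from 120 to 31 bases before the start, 5′ to 3′ on the gene's strand, with the motif in capitals. They are Klf1 (chr8:84901862-84901951, plus strand), Epor (chr9:21963607-21963696, minus strand), Alas2 (chrX:150547297-150547386, plus strand) and Ermap (chr4:119190026-119190115, minus strand).
Klf1: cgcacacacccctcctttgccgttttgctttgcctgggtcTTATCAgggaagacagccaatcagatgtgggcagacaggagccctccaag
Epor: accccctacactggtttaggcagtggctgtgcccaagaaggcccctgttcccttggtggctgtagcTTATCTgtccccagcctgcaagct
Alas2: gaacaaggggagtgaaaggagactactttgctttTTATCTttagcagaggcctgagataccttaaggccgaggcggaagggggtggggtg
Ermap: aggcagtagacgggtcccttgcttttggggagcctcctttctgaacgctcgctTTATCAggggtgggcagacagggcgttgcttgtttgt
In each of these stretches the motif reads on the opposite strand, and it begins 80, 54, 86 and 67 bases before the start in Klf1, Epor, Alas2 and Ermap. The windows of Gata1, Zfpm1 and Tfrc held none of these letters, which says nothing of GATA1 binding elsewhere. A CACC-type motif, searched as CCNCNCCC on both strands with overlapping matches counted, was in the windows of 5 of the 7 genes (Gata1, Zfpm1, Epor, Tfrc and Alas2), against 45.9% of all windows. Its shorter core CACCC was in the windows of 7 of the 7, against 52.0% of all, so the count depends on how the motif is written.

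The same windows differ in how many CG pairs they hold. The Gata1 window holds 2 CG pairs, Klf1 3, Alas2 4, Ermap 5 and Epor 6, where the median of all windows is 6. The Zfpm1 window holds 28, more than 92.4% of all windows, and the Tfrc windows hold 25 and 23. These counts describe the reference sequence, and methylation was not measured here.

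The 6 arrays had medians within 0.0694 of each other on the log2 scale, and depth of an array is not counted, so precision rests on 3 arrays a group. At all 4 Tet1 probe sets each Tet1 KO array read below each WT array, with differences in mean from -1.68 to -0.93, and where these lie relative to the deletion is not known here. All 7 measured LSK markers read on average above the level of 4.39 given by the brightest bacterial control probe sets, used here as a guide to background, and Sca-1 itself (Ly6a) was not analysed here. Of markers of other cells, some had means below that level in WT and in Tet1 KO. They included the T cell genes Cd3d, Cd3e and Cd3g (3 of 5 measured) and the macrophage gene Adgre1 (1 of 5). The B cell gene Ms4a1 (1 of 4) and the mast cell genes Ms4a2 and Fcer1a (2 of 5) were also among them. The rest of these markers, with all 7 granulocyte and all 5 megakaryocyte markers, had a mean above that level in WT, Tet1 KO or both. Tet1 KO replicate 2 stood apart, with the brightest bacterial control at 4.87 against 4.21 to 4.37 on the others. Its probe sets in the lowest quartile of level were shifted by a median of 0.26 from WT and those in the highest quartile by -0.22. On the other Tet1 KO arrays these shifts were 0.06 and 0.09 at the low end, and -0.08 and -0.07 at the high end. WT replicate 3 and Tet1 KO replicate 3 had low Xist, at 4.58 and 3.82 against 11.78 to 12.17 on the others, and high Kdm5d, a Y-linked gene, at 8.30 and 9.16 against 2.77 to 3.65.

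None of the 15 erythroid probe sets passed the test between genotypes. In limma over 45050 probe sets, 0 of the 15 had a Benjamini-Hochberg adjusted p under 0.05, as for 0.0% of all probe sets, and their adjusted p-values ran from 0.686 to 0.929. At an unadjusted p under 0.05 there was 1 of 15, Car2, or 6.67%, against 6.81% of all probe sets, so the members' share is that of the background. In the same fit the 4 Tet1 probe sets each had an adjusted p in limma of 0.686, so Tet1 itself did not pass either. With an intensity trend and robust estimation 0 of the 15 passed adjustment. By their means 10 probe sets were lower in Tet1 KO and 5 higher, the median difference being -0.27, while over all probe sets 42.9% were lower and the median was 0.06. That reference includes probe sets at background, and over those with a mean above the bacterial control level the median was -0.040. Over the 15 probe sets that lower direction depended on Tet1 KO replicate 2: without it 7 were lower and 8 higher, and the median was 0.0055. These counts take Tfrc 6 times. By the brightest probe set of each gene, 7 of 9 genes were lower, with a median of -0.39, against 43.5% and 0.05 over all genes. Without Tet1 KO replicate 2, Klf1, Zfpm1, Epor, Alas2, Car2 and Ermap were lower by that measure, from -0.57 to -0.37. Gata1, Tfrc and Car1 were then higher, from 0.065 to 0.32. The groups did not overlap at 3 of 15 probe sets, Car2 and Alas2 on the lower side and 1 Tfrc probe set on the higher side. Of all probe sets 16.3% had no overlap, 6.3% with Tet1 KO below and 9.96% with Tet1 KO above.

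**Figure D1:**
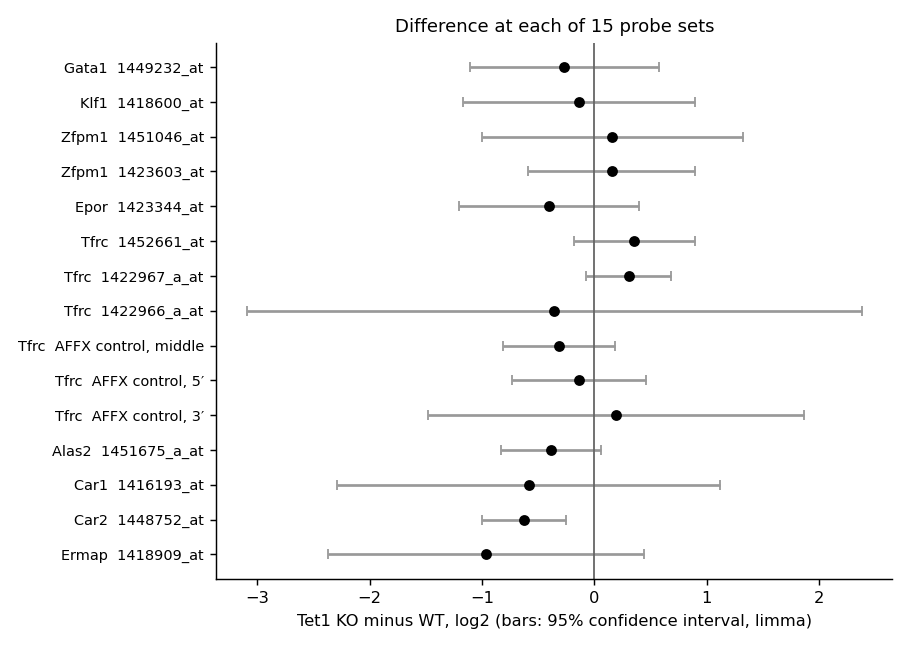
Difference in mean log2 intensity, Tet1 KO minus WT, at each of the 15 probe sets (points), with the 95% confidence interval of the limma fit (bars, n = 3 arrays each). The interval of Car2, from -0.997 to -0.25, is the only one here that does not include 0.

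Gata1, the master regulator of red cell and megakaryocyte genes, read above the bacterial control level of 4.39 on all 6 arrays. Its probe set 1449232_at read 5.55, 5.86 and 5.89 on WT replicates 1, 2 and 3, and 5.42, 4.84 and 6.24 on the Tet1 KO replicates. The Tet1 KO arrays included both the lowest and the highest value of the 6, so the groups overlapped. The value on Tet1 KO replicate 2, 4.84, was below the brightest bacterial control of that array, 4.87. The difference was -0.27 (SE 0.35), with a 95% interval from -1.11 to 0.58 and an adjusted p in limma of 0.790. Gata1 is X-linked, and with the Xist level of each array as a term the difference was -0.30. It moved to 0.065 if Tet1 KO replicate 2 was left out, and to -0.64, the lowest of these values, if Tet1 KO replicate 3 was.

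Klf1, the red cell Krüppel-like factor, had nearly equal means and a wide spread in Tet1 KO. Its probe set 1418600_at read 7.06, 7.15 and 6.84 in WT and 5.92, 7.72 and 6.99 in Tet1 KO. Replicate 1 of Tet1 KO was the lowest array and replicate 2 the highest, on either side of all WT arrays. The difference was -0.14 (SE 0.43, adjusted p in limma 0.915), with an interval from -1.17 to 0.89 that holds both directions, and it turned to 0.34 without Tet1 KO replicate 1.

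Zfpm1, whose product FOG1 binds GATA1, was read by 2 probe sets that both showed this pattern of a spread Tet1 KO group. At 1451046_at the values were 8.07, 7.51 and 7.68 in WT and 7.26, 9.07 and 7.41 in Tet1 KO. At 1423603_at they were 7.19, 6.74 and 7.17 in WT and 6.52, 7.45 and 7.58 in Tet1 KO. Both probe sets had their lowest value on Tet1 KO replicate 1, and they disagreed on Tet1 KO replicate 3, whose deviation from the WT mean was -0.35 at the first and 0.55 at the second. The differences were 0.16 (SE 0.49) and 0.15 (SE 0.31), with adjusted p-values in limma of 0.914 and 0.861. The first turned to -0.42 without Tet1 KO replicate 2 and to -0.21 with array weights, and the second turned to -0.043 without Tet1 KO replicate 3.

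Epor, the erythropoietin receptor, was nearly constant in WT and low on 1 Tet1 KO array. Its probe set 1423344_at read 5.20, 5.28 and 5.22 in WT and 4.04, 5.12 and 5.32 in Tet1 KO. The value on Tet1 KO replicate 1 was below the brightest bacterial control of that array, 4.37, while the other Tet1 KO arrays deviated from the WT mean by -0.11 and 0.08. The difference of -0.41 (SE 0.33, adjusted p in limma 0.706) became -0.015 without Tet1 KO replicate 1.

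Alas2, which makes the first haem precursor in red cells, was at the limit of detection. Its probe set 1451675_a_at read 4.05, 4.52 and 4.12 in WT and 3.999, 3.81 and 3.71 in Tet1 KO. Each Tet1 KO array lay below each WT array, but only WT replicate 2 was above the bacterial control level. The difference was -0.39 (SE 0.19, adjusted p in limma 0.686), and as these values lie at background its size is not that of a transcript level. Alas2 is X-linked too, and the difference was -0.38 with the Xist level as a term.

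Car2, a cytosolic carbonic anhydrase found in progenitors as well as red cells, gave the most regular difference of the 9 genes. Its probe set 1448752_at read 11.98, 11.95 and 11.90 in WT and 11.21, 11.21 and 11.53 in Tet1 KO. All 3 Tet1 KO arrays were below all WT arrays, with a gap of 0.37 between the nearest arrays of the groups. The difference was -0.62 (SE 0.16), a WT level 1.54-fold that of Tet1 KO, with an interval from -0.997 to -0.25, an unadjusted p in limma of 0.00570 and an adjusted p of 0.686. It was between -0.73 and -0.57 when each array was left out, and between -0.63 and -0.53 under the other settings. Its unadjusted p stayed under 0.05 in all 15 of these, from 0.00111 to 0.0238, and no adjusted p did, the lowest being 0.479. These fits reuse the same arrays, and some leave the difference itself unchanged, so they are not separate checks.

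Car1, the other carbonic anhydrase of red cells, did not follow Car2 array by array. Its probe set 1416193_at read 8.77, 8.88 and 9.15 in WT and 9.63, 6.62 and 8.79 in Tet1 KO. Replicate 1 of Tet1 KO was the highest of the 6 arrays and replicate 2 the lowest, with a deviation of -2.31 from the WT mean. The difference of -0.59 (SE 0.71, adjusted p in limma 0.775) was close to that of Car2 in size but became 0.27 without Tet1 KO replicate 2 and 0.026 with array weights. The 2 genes lie in a row of carbonic anhydrase genes on 1 chromosome, in the order Car13, Car1, Car3 and Car2 in RefSeq on GRCm38.p6. Car3, between Car1 and Car2, read 7.52, 7.91 and 8.15 in WT and 7.91, 7.72 and 5.92 in Tet1 KO, so that its low array was replicate 3. Car13 read 5.50, 5.80 and 6.75 in WT and 5.03, 5.76 and 6.60 in Tet1 KO. Of these 4 neighbours, only Car2 had groups without overlap.

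Ermap, an immunoglobulin-like membrane protein of red cells that carries the Scianna blood group in humans, had the largest difference in mean of the 15 probe sets. Its probe set 1418909_at read 6.99, 7.18 and 7.20 in WT and 5.51, 5.34 and 7.63 in Tet1 KO. Replicates 1 and 2 of Tet1 KO lay far below WT, while replicate 3 was the highest of all 6 arrays. The difference was -0.96 (SE 0.59), with an interval from -2.37 to 0.44 and an adjusted p in limma of 0.686. It was -1.70 without Tet1 KO replicate 3, where the unadjusted p was 8.53e-05 and the adjusted p in limma 0.551, and -0.55 without Tet1 KO replicate 2. With the Xist level as a term the difference was -1.02.

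**Figure D2:**
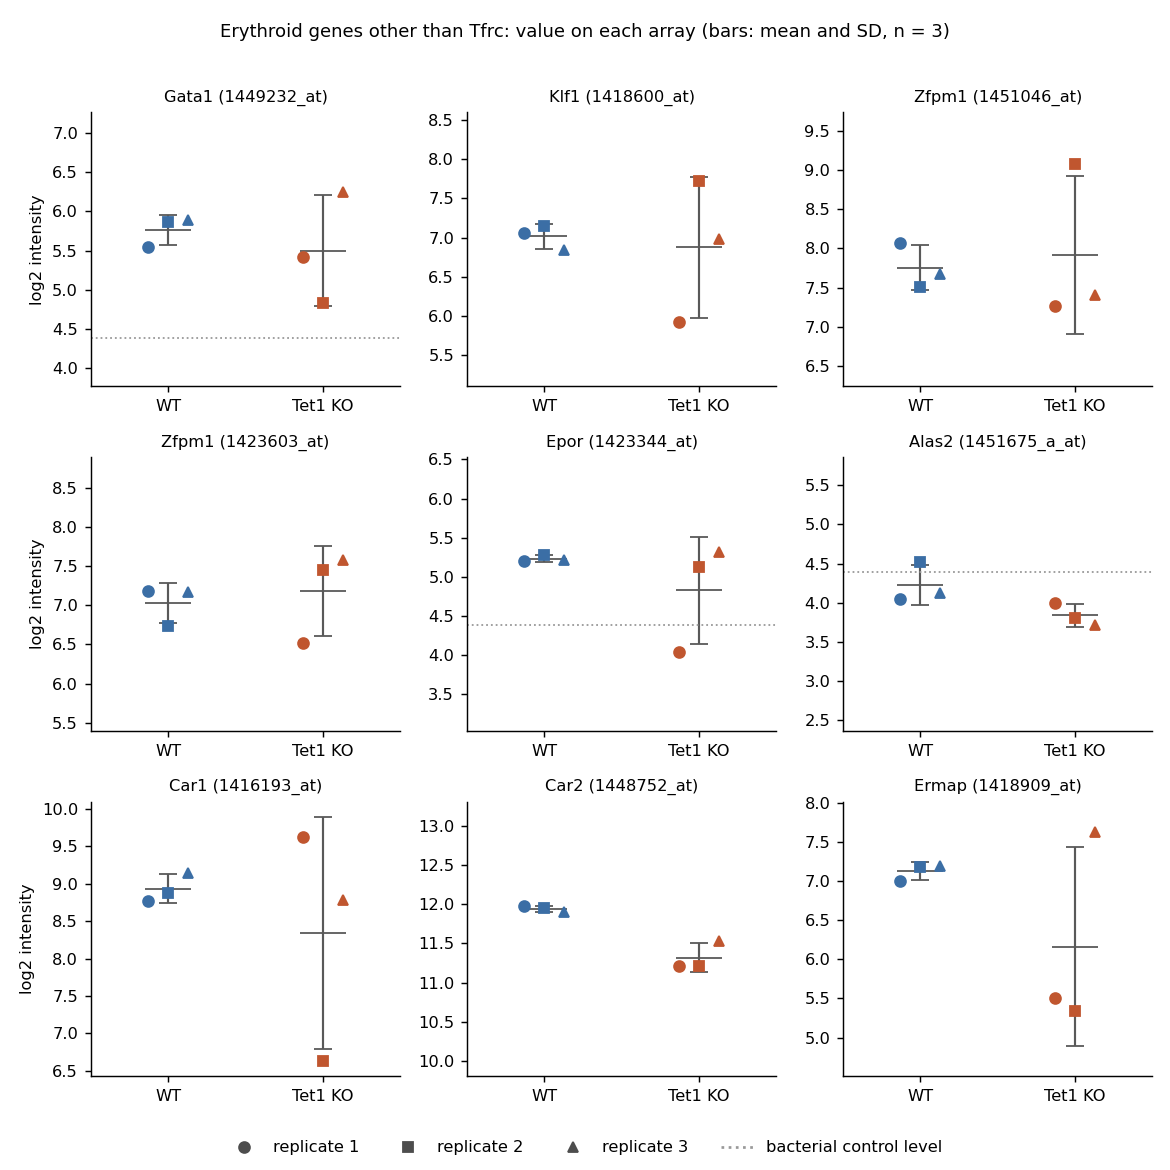
Log2 intensity (vertical axis) of the 9 probe sets of the 8 genes other than Tfrc on each WT and Tet1 KO array (points, shape by replicate number), with the mean and SD of 3 arrays (bars) and the bacterial control level (dotted line, drawn where it falls in the panel). The Tet1 KO points spread more widely than the WT points in each panel except that of Alas2, with Ermap at 5.51, 5.34 and 7.63 in Tet1 KO.

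What the members shared was a wider spread among the Tet1 KO arrays than among the WT arrays. The SD was larger in Tet1 KO at 13 of 15 probe sets, where 71.9% of all probe sets show this, and over 2 times as large at 12 of 15, where 43.3% do. The median SD was 0.20 in WT and 0.69 in Tet1 KO, against 0.17 and 0.30 over all probe sets. Epor had the largest ratio, with an SD of 0.04 in WT and 0.69 in Tet1 KO, followed by Ermap, with 0.11 and 1.27, and Car1, with 0.20 and 1.55. The exceptions were Alas2, with 0.26 and 0.15, and the Tfrc probe set 1452661_at, with 0.34 and 0.23. Without Tet1 KO replicate 1, 2 or 3 the SD was larger in Tet1 KO at 12, 12 and 11 of the 15, where 65.2%, 50.7% and 64.1% of all probe sets show this. The spread was not on 1 array: the lowest of the 6 values was on Tet1 KO replicate 2 at 8 probe sets (24.6% of all probe sets), on replicate 1 at 4 (14.4%) and on replicate 3 at 1 (15.5%), while the highest was on replicate 3 at 6 (17.3%) and on replicate 2 at 3 (35.9%). These counts are descriptions, since 6 of the 15 probe sets read the same gene and the arrays are shared by all. The limma fit assumes 1 spread for both groups.

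**Figure D3:**
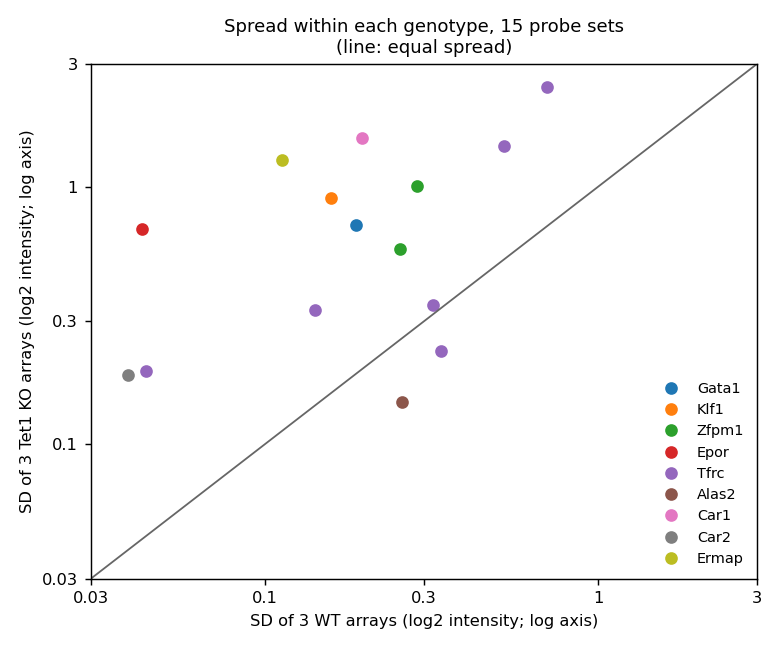
SD of the 3 Tet1 KO arrays (vertical) against SD of the 3 WT arrays (horizontal) for the 15 probe sets, coloured by gene, on log axes of log2 intensity, with the line of equal spread. There are 13 points above the line, and Epor is farthest from it, at 0.04 in WT and 0.69 in Tet1 KO.

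Tfrc, the transferrin receptor, had probe sets that did not tell the same story. Its mRNA carries iron-responsive elements in the 3′ untranslated region, which iron regulatory proteins bind to keep the message stable when iron is short. Probe set 1422967_a_at read 7.93, 7.97 and 7.88 in WT and 8.44, 8.20 and 8.06 in Tet1 KO, with all Tet1 KO arrays above all WT arrays. The difference there was 0.30 (SE 0.16, adjusted p in limma 0.686). Probe set 1452661_at read 7.75, 8.12 and 7.45 in WT and 7.94, 8.39 and 8.06 in Tet1 KO, with overlap. The means differed by 0.35 there (SE 0.22, adjusted p in limma 0.686).

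Another 2 Tfrc probe sets varied far more between arrays, and in the same order in Tet1 KO. Probe set 1422966_a_at read 7.15, 6.88 and 5.82 in WT and 6.78, 3.61 and 8.40 in Tet1 KO. The control probe set against the 3′ part read 5.92, 5.79 and 4.96 in WT and 5.86, 4.26 and 7.13 in Tet1 KO. In both, WT replicate 3 was the lowest WT array, Tet1 KO replicate 2 the lowest of all and under the bacterial control level, and Tet1 KO replicate 3 the highest of all. The first ranged over 4.79 among the Tet1 KO arrays, on which 1422967_a_at ranged over 0.38. The differences in mean were -0.36 (SE 1.14) and 0.19 (SE 0.70), with adjusted p-values in limma of 0.919 and 0.929, and their direction depended on the arrays used: without Tet1 KO replicate 2 they were 0.97 and 0.94, and without Tet1 KO replicate 3 they were -1.43 and -0.50.

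The control probe sets against the middle and the 5′ part of Tfrc were steadier. The middle one read 6.02, 6.19 and 5.91 in WT and 6.04, 5.38 and 5.77 in Tet1 KO, which gives -0.31 (SE 0.21, adjusted p in limma 0.686). The 5′ one read 7.75, 7.97 and 7.34 in WT and 7.45, 7.27 and 7.94 in Tet1 KO, which gives -0.14 (SE 0.25, adjusted p in limma 0.845). On Tet1 KO replicates 1, 2 and 3 the signal of the 3′ minus that of the 5′ control of Tfrc stood at 0.54, -0.88 and 1.32 from its WT mean. The same measure, a common sign of RNA quality, was 0.29, -0.25 and 0.43 for Gapdh, 0.17, -0.25 and -0.02 for Actb, and -0.16, 0.24 and 0.23 for Pcx, and its part in the Tfrc values was not tested. Averaged over its 6 probe sets, Tfrc differed by 0.0074.

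**Figure D4:**
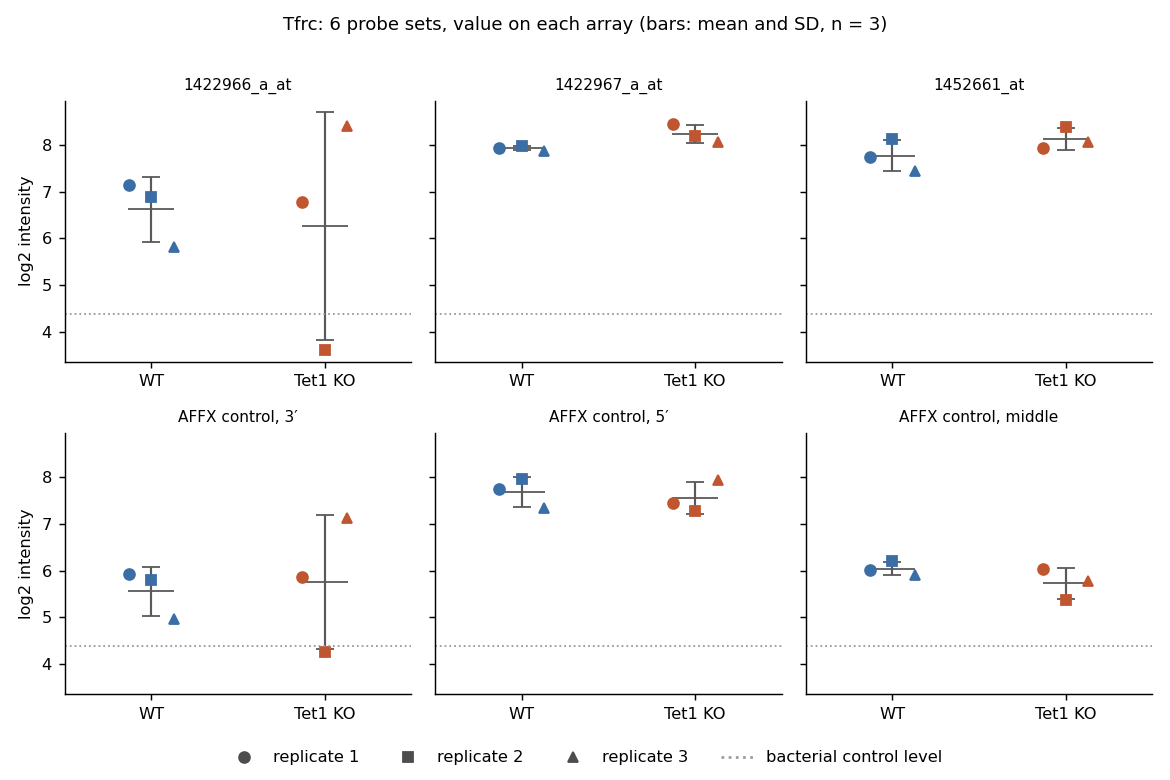
Log2 intensity (vertical axis) of each of the 6 Tfrc probe sets on each WT and Tet1 KO array (points, shape by replicate number), with the mean and SD of 3 arrays (bars) and the bacterial control level (dotted line). Probe set 1422966_a_at and the 3′ control spread widely in Tet1 KO, from 3.61 to 8.40 and from 4.26 to 7.13, while the other 4 stay within narrow ranges.

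The wider erythroid network was read through 9 lists of related genes, each gene by its brightest probe set. Of 91 measured genes, 0 passed the adjusted threshold in limma over all probe sets, in either direction, against 0.0% of the 18194 genes, and 8 had an unadjusted p under 0.05, against 6.73% of all genes. The median difference over all genes was 0.05, and 43.5% were lower in Tet1 KO. Those figures include genes at background. As given above, the lowest quartile of probe sets was shifted up and the highest quartile down on each Tet1 KO array. Over probe sets with a mean above the bacterial control level the median was -0.040. No share matched for level was taken for any list, so the counts of lower and higher genes below are descriptions.

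Transcription factors that work beside GATA1 and KLF1 were mostly lower by their means. The median was -0.30 over 14 measured genes, 12 of them lower and 2 higher, and 3 had an unadjusted p under 0.05. Gfi1b, a repressor needed for red cells and platelets, read 9.25, 8.97 and 9.14 in WT and 8.18, 8.43 and 8.32 in Tet1 KO, without overlap, a difference of -0.81 (SE 0.16, adjusted p in limma 0.686). Klf3, a repressor that KLF1 activates, differed by -0.52 (SE 0.17), or by -0.21 where its probe sets were averaged. Among the relatives of Gata1 and Zfpm1, the median was 0.25, and 2 of 6 were lower. Gata2, which precedes GATA1 in progenitors, read 9.92, 9.82 and 10.001 in WT and 9.43, 8.71 and 9.64 in Tet1 KO, without overlap. Its difference of -0.66 (SE 0.26) came to -0.38 without Tet1 KO replicate 2 and to -0.37 over all its probe sets. Gata6 differed by 0.62 (SE 0.21), or by 0.31 over all its probe sets. It was one of 3 relatives, with Gata4 and Zfpm2, whose WT and Tet1 KO means were both at background by that control level.

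Haem synthesis genes were lower by their means in 10 of 11 cases, with a median of -0.23, 1 with an unadjusted p under 0.05. That gene was Fech, whose enzyme inserts iron to form haem, and it read 7.95, 8.17 and 7.84 in WT and 7.64, 6.42 and 7.28 in Tet1 KO. Its difference of -0.87 (SE 0.32, adjusted p in limma 0.686) was -0.52 without Tet1 KO replicate 2 and -0.28 as an average over its probe sets. Uros, an earlier enzyme of the pathway, was the 1 higher gene, at 0.31 (SE 0.16), or 0.043 as such an average. Iron handling genes were split, 4 of 11 being lower and 7 higher, and their median was 0.0066. Ireb2, which encodes an iron regulatory protein that binds Tfrc mRNA, differed by 0.31 (SE 0.22), and the mitochondrial iron importer gene Slc25a28 by -0.16 (SE 0.14), with overlap in both.

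Genes of finished red cells gave no common direction. Among 6 globin genes 1 was lower, and the median was 0.34. The embryonic globin genes Hba-x and Hbb-y, at 0.38 (SE 0.17) and 0.50 (SE 0.27), had WT means of 3.90 and 3.997, below the bacterial control level. Hbb-y differed by 0.26 as an average over its probe sets. The probe set listed for the adult alpha globin gene Hba-a2, which has a near-identical copy, Hba-a1, read 11.19, 11.17 and 11.23 in WT and 11.44, 11.06 and 10.31 in Tet1 KO. Adult alpha globin signal was thus present in both genotypes, with overlap. Membrane and skeleton genes had a median of 0.036, and 7 of 15 were lower. Glycophorin C, encoded by Gypc, differed by -0.72 (SE 0.27) without overlap, and the Kell partner gene Xk by 0.79 (SE 0.35) with overlap, both at an adjusted p in limma of 0.686. The Xk difference was 0.43 without Tet1 KO replicate 3 and 0.46 as an average over its probe sets. Slc4a1, the anion exchanger of red cells, read 4.32 to 4.71 in WT and 4.52 to 4.91 in Tet1 KO, just around the bacterial control level.

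Genes of erythropoietin receptor signalling had a median of 0.020 and were lower in 5 of 10 cases. Stat5b, a transcription factor that the receptor activates, read 8.05, 8.05 and 8.06 in WT and 7.84, 6.09 and 7.60 in Tet1 KO. Its difference of -0.88 (SE 0.45, adjusted p in limma 0.686) was -0.34 without Tet1 KO replicate 2 and -0.74 as an average over its probe sets. Bcl2l1, the survival gene that this pathway raises, differed by 0.32 (SE 0.20), or by 0.026 where its probe sets were averaged. The 14 other carbonic anhydrases had a median of 0.079, with 5 lower. Car7 and Car5a, at 0.49 (SE 0.23) and 0.41 (SE 0.22), both had overlapping groups. Averaged over its probe sets, Car7 differed by 0.16. The 4 measured butyrophilin genes, relatives of Ermap, were all higher by their means, with Btnl10 at 0.78 (SE 0.30) and Btn1a1 at 0.40 (SE 0.18), but both had WT means below the bacterial control level, at 3.82 and 3.62. Averaged over its probe sets, Btn1a1 differed by 0.56.

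**Figure D5:**
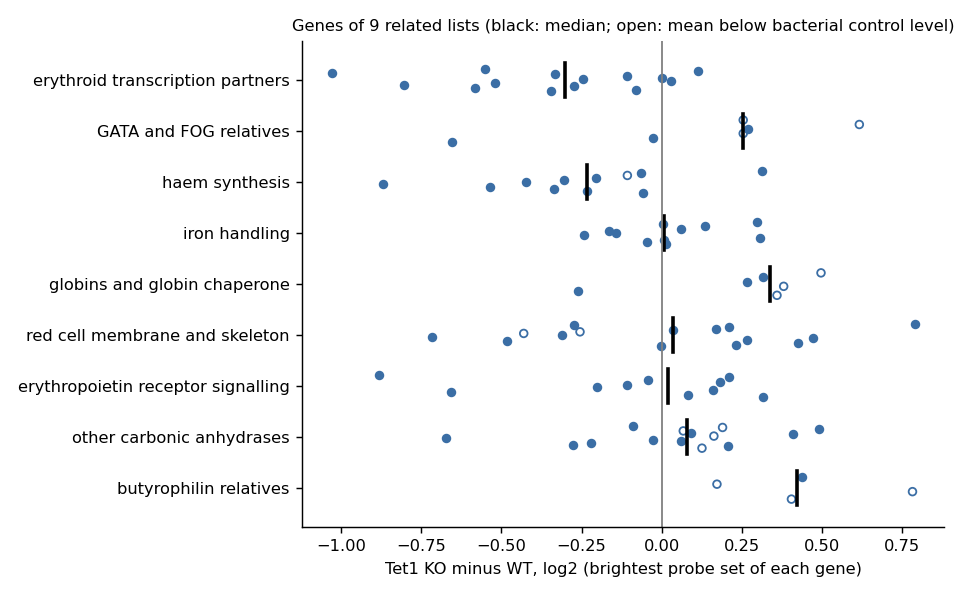
Difference in log2 intensity, Tet1 KO minus WT (horizontal axis), of each gene of 9 related lists at its brightest probe set (points), with the median of each list (black bars). Open points have a mean under the bacterial control level of 4.39. The medians run from -0.30 for transcription partners to 0.42 for butyrophilin relatives.

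Markers of other cells were read beside these values. For megakaryocytes, which share GATA1 and FOG1 with red cells, 3 of 5 measured markers were lower and 2 higher, and their summed linear intensity ran from 622 to 716 in WT and from 669 to 899 in Tet1 KO. For mast cells and basophils, which also use GATA1, all 5 were higher by their means, with sums from 134 to 336 in WT and from 174 to 388 in Tet1 KO, while Ms4a2 and Fcer1a were at background as given above. For late red cells, 2 of 6 listed markers were measured, and both were higher by their means, with sums from 28.5 to 35.5 in WT and from 34.3 to 39.2 in Tet1 KO, but Hba-a1 was below the bacterial control level in both genotypes and Slc4a1 was around it. The bright Hba-a2 probe set had a lower mean in Tet1 KO, by a difference of -0.26. All 5 T cell markers were higher by their means, and their sums did not overlap, at 121.7 to 129.5 in WT and 138 to 179 in Tet1 KO, although Cd3d, Cd3e and Cd3g were at background. The sums of B cell, granulocyte and macrophage markers overlapped, with 2 of 4, 5 of 7 and 3 of 5 higher. The LSK markers, of which 5 of 7 were lower, summed to between 6291 and 7448 in WT and between 5125 and 7657 in Tet1 KO. The part of cell makeup in the values of the 9 genes was not tested.

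The genes whose pattern over the 6 arrays was most like the median pattern of the erythroid genes were Rnf130, Carhsp1, Apeh, Alg1 and Vasp. The erythroid pattern was taken as the median over the 9 genes of each brightest probe set minus its own mean, and was 0.13, 0.24 and 0.19 in WT and -0.42, -0.23 and 0.04 in Tet1 KO. The members did not all follow this median. Klf1 and Zfpm1 1451046_at were highest on Tet1 KO replicate 2 and Car1 on Tet1 KO replicate 1. Tfrc 1422967_a_at was above WT on all Tet1 KO arrays. Pearson's r with it ran from 0.982 for Vasp to 0.989 for Rnf130, the highest among 12957 genes above the bacterial control level, over 6 arrays that share their normalization. Apeh read 7.82, 7.92 and 7.83 in WT and 6.71, 6.85 and 7.59 in Tet1 KO, with Tet1 KO replicate 3 nearest to WT, as in the median pattern.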

How the data were processed

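The authors deposited 1 table of log2 intensities for the 6 arrays. That they are log2 follows from their range (1.50 to 14.6), and the background correction, normalization and summarization are not given in the sources used here. Per the labels' protocols, cDNA was made from 125 ng of total RNA with whole-transcript kits, while the platform annotation is that of a 3′ array, which was not resolved. Values were used as deposited, since array medians differed by less than 0.3. Control probe sets that name no gene (51) were left out, and 45050 were tested. Of 34958 probe sets with 1 symbol, 99.4% were found in RefSeq through the gene identifier, which altered 0 symbols. Another 932 have several symbols and 9211 none, and name no gene here.

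Tet1 KO and WT were compared in limma 3.58.1 (R 4.3.3) with lmFit and eBayes, genotype as the only term, two-sided, with Benjamini-Hochberg adjustment over all probe sets at 0.05. SE and 95% intervals are those of the moderated fit, and means carry the spread of 3 arrays. An exact permutation test of 3 against 3 cannot go below p = 0.1. The fit was checked on simulated data with equal spread in both groups, which does not cover the unequal spread seen in these arrays. The bacterial control level averages, over the 6 arrays, the top value among 27 bacterial spike probe sets. Samples were grouped and numbered from their titles. Arrays with the same number did not deviate together (r of 0.013, -0.0064 and 0.00033 over probe sets). The members, the gene lists and the rule for named genes (all member probe sets, the 2 genes with the smallest p of each list, and 5 genes of like pattern) were chosen with earlier results of these data known. Sex-linked Kdm5d and the neighbours and globin genes given by value were chosen after their values were seen. Figures were drawn with matplotlib 3.10.9.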

Additional observations from a re-analysis of the deposited data

How the results depend on the processing

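The count of erythroid probe sets past the adjusted threshold was 0 in all 17 alternatives run: quantile normalization, equal array medians, cyclic loess, both filters, the brightest or the mean of probe sets per gene, eBayes with an intensity trend and robust estimation, array weights, the replicate block, the Xist level as a term, and each array left out. Over all probe sets the count was also 0, except for 1 with the trend and robust fit, probe set 1450192_at, for which no gene is listed. With the replicate block the Car2 difference was -0.62 at an unadjusted p of 0.0222 in limma, and the block changed no call. Of the 213 values of the 15 probe sets under these alternatives, 200 kept their direction and 13 reversed, and 7 probe sets never reversed. Some of the 200 could not reverse. The trend and robust fit, the replicate block and the brightest probe set per gene leave the difference itself unchanged. So does the mean of probe sets for a gene with 1 probe set. All 13 reversals came with array weights or with an array left out. With array weights Zfpm1 1451046_at gave -0.21, Tfrc 1422966_a_at 0.37 and Car1 0.026. With 1 array left out, the range was -0.64 to 0.065 for Gata1, -0.56 to 0.34 for Klf1, -0.043 to 0.48 and -0.42 to 0.49 for the Zfpm1 probe sets 1423603_at and 1451046_at, -1.23 to 0.27 for Car1, and, for Tfrc, -1.43 to 0.97 at 1422966_a_at, -0.50 to 0.94 at the 3′ control and -0.33 to 0.0055 at the 5′ control. The reversals for an array left out come from that array's own value. Counts over the members without each array were added after seeing the data: 7 to 12 of the 15 were lower, and the groups did not overlap at 3 to 6, against 23.1% to 31.8% of all probe sets in these fits. The unadjusted p was under 0.05 for Car2 in each of the 6 fits, joined by Gata1 and Ermap without Tet1 KO replicate 3, against 3.46% to 10.3% of all probe sets. Background limits Alas2 on 5 arrays, Epor on Tet1 KO replicate 1, and Gata1, Tfrc 1422966_a_at and the 3′ control of Tfrc on Tet1 KO replicate 2.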
